A study of Mus musculus with 6 samples.

Results

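Proximal B cell receptor (BCR) signalling is described here through 32 genes of the signalling chains, kinases, adaptors, exchange factors and phosphatases that act just beneath the receptor. They were taken by gene symbol from tables of 24346 genes, and all 32 were found. RNA sequencing was made of splenic follicular (Fo) B cells, the recirculating mature B cells of the spleen, from mice aged 8 weeks. The cells were sorted as positive for B220 and negative for CD93, with low CD21 and high CD23. There were 3 libraries from mice homozygous for the G9gl antibody knock-in (HL homozygous in the design text), and 3 libraries from B6 control mice, called WT. Per the series title and design text, the knock-in encodes the germline precursor of an antibody to double-stranded DNA from a lupus patient, and the comparison was made to learn about the anergic state of these B cells, in which a self-reactive cell persists but responds weakly. The labels do not tie a library to an animal. The p-values therefore rest on the spread between 3 libraries of each genotype, and this spread may be only technical.

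When antigen binds the BCR, Src-family kinases phosphorylate paired tyrosines in the tails of the signalling chains CD79A and CD79B, and the kinase SYK docks there. SYK phosphorylates the scaffold BLNK, which brings BTK to phospholipase C gamma 2. That enzyme makes inositol trisphosphate, which releases calcium, and diacylglycerol, which recruits RASGRP exchange factors to Ras and protein kinase C beta, which acts upstream of BCL10 and MALT1 in the NF-kB pathway. Chronic receptor occupancy in anergic B cells is known for dampened signalling through this chain.

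The site where the chain starts is shown first, because CD79A and CD79B carry the only copies of it that were found. Coding sequences of all 32 genes in GENCODE vM21 were searched, over 77 transcripts, for a tyrosine codon, any 2 codons and a leucine or isoleucine codon, then 6 to 8 codons, then the same again. This is the codon pattern of an immunoreceptor tyrosine-based activation motif (ITAM). The Cd79a stretch begins at codon 182 of 220 (chr7:24901296-24901469, plus strand, mm10) and the Cd79b stretch at codon 255 of 288 (chr11:106311867-106312012, minus strand), each spanning an intron. Both are 45 bases long and 31 bases are identical. Capitals mark the tyrosine codons, which are phosphorylated when the receptor is engaged.
Cd79a: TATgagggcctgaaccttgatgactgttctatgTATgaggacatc
Cd79b: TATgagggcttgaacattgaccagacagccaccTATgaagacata
No other gene of the set, Nfam1 included, matched this spacing, which says nothing of motifs with another spacing.

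All 32 genes had at least 1 FPKM (fragments scaled to the length of the transcript and to the mapped fragments of the library) in at least 3 libraries and were tested. In G9gl, 5 rose (Blnk, Nck2, Vav3, Rasgrp3 and Bcl10) and 12 fell (Cd79a, Nfam1, Map4k1, Prkcb, Prkcd, Shc1, Plcg2, Vav2, Rasgrp1, Sos1, Sos2 and Malt1), while 15 did not pass. Calls are limma's, at a Benjamini-Hochberg adjusted p under 0.05 over all 10122 tested genes. Of the 32 genes 15.6% were called higher and 37.5% lower, against 11.8% and 11.6% of all tested genes, or 23.4% in either direction. The median log2 fold change of the 32 was -0.13, ranging from -1.87 for Nfam1 to 1.19 for Vav3, and the median over all tested genes was -0.0022. Without overlap between the 3 G9gl and the 3 WT libraries, 6 genes were above WT and 15 below, 18.8% and 46.9% of the set, against 20.3% and 20.5% of all tested genes, or 40.8% in either direction. In such bulk libraries fewer cells of a type and less RNA per cell cannot be told apart.

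The number of calls depended on scaling and on single libraries. Immunoglobulin transcripts were not analysed here, and the FPKM of the other genes summed to 657759 to 671533 in the G9gl libraries and to 603054 to 611557 in the WT libraries. With each library rescaled to the same total (TPM), the median over all tested genes moved to -0.13 and that of the 32 to -0.26. Then 3 of the 32 were called higher and 19 lower, against 7.21% and 24.6% of all tested genes, and the share of calls over all genes that were higher was 22.6%, against 50.4% with FPKM as deposited. That rescaling added lower calls for Cd79b, Cd81, Syk, Btk, Bank1, Vav1 and Ptprc and took away the calls of Blnk and Bcl10. After quantile normalization 4 were called higher and 16 lower, against 10.2% and 11.3% of all tested genes. Lower calls were added for Cd79b, Cd81, Syk and Bank1, and the call of Blnk was taken away. Without WT replicate 2 the counts were 3 higher and 7 lower, against 8.26% and 6.86% of all tested genes. Without G9gl replicate 2 they were 3 and 9, against 7.93% and 7.94%. Without G9gl replicate 3 they were 3 and 8, against 8.67% and 8.26%. Without WT replicate 3 they were 3 and 9, against 9.86% and 8.59%. Nfam1, Map4k1, Prkcb, Malt1, Vav2, Vav3, Rasgrp1, Rasgrp3, Nck2 and Sos2 were called under every alternative that tested them.

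**Figure D1:**
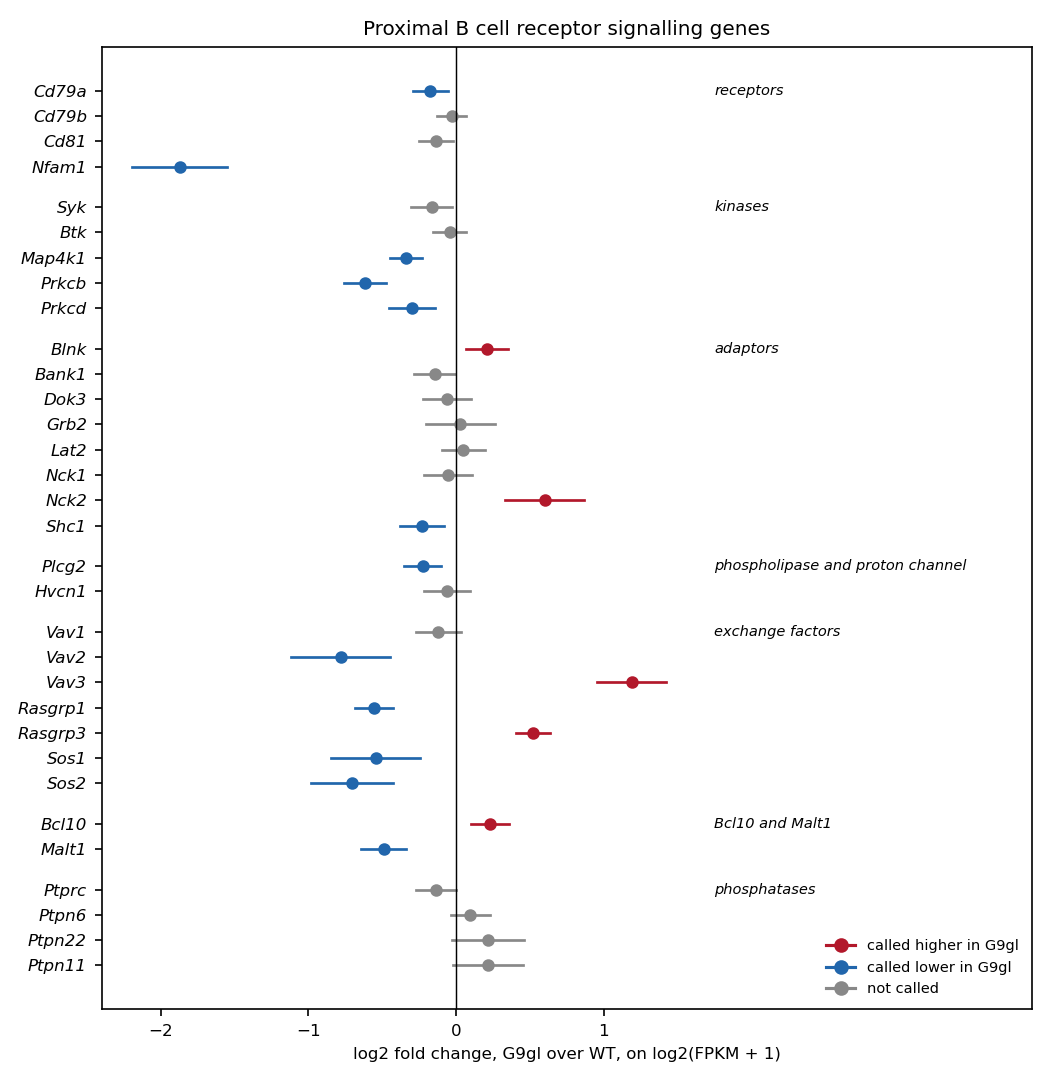
Log2 fold change of G9gl over WT, on log2(FPKM + 1), for the 32 genes in order of signalling step, with 95% confidence intervals from the limma fit (3 libraries per genotype). Red genes were called higher (5), blue genes lower (12) and grey genes were not called (15), and Nfam1 at -1.87 and Vav3 at 1.19 are the ends of the range.

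The sort was checked against markers. The B cell genes Ms4a1 and Pax5 were well detected but fell. Ms4a1 had 634 to 664 FPKM in G9gl, against 826 to 929 FPKM in WT, and Pax5 had 42.3 to 48.8 FPKM in G9gl, against 49.9 to 56.4 FPKM in WT. Of 12 tested macrophage markers 10 rose and 0 fell, and the 17 listed summed to 62.4 to 68.8 FPKM in G9gl, against 23.9 to 31.6 FPKM in WT. The defining ones were low, and Csf1r for instance had 2.11 to 2.83 FPKM in G9gl, against 0.736 to 1.21 FPKM in WT. C1qa was also called higher, but the defining Adgre1 was not called (limma adjusted p 0.276). Adgre1 had 2.58 to 3.37 FPKM in G9gl, against 2.33 to 2.55 FPKM in WT. C1qb and C1qc rose most, with log2 fold changes of 1.59 ± 0.17 and 1.57 ± 0.16 (standard error, SE, as for all log2 fold changes here). Monocyte and neutrophil markers, 2 of 4 tested called higher, summed to 58.0 to 71.8 FPKM in G9gl, against 15.4 to 23.6 FPKM in WT. T cell markers summed to 10.8 to 12.8 FPKM in G9gl, against 8.74 to 11.1 FPKM in WT, and limma called 0 of 5 tested, with 0 at an unadjusted p under 0.05. NK cell markers, 2 of 2 tested called higher and Klre1 listed at 0 in every library, summed to 8.06 to 11.9 FPKM in G9gl, against 3.20 to 5.41 FPKM in WT. Dendritic cell markers, 2 of 3 called higher, summed to 7.52 to 8.40 FPKM in G9gl, against 2.66 to 4.67 FPKM in WT. In G9gl this sum was mostly Cd209a, Zbtb46 and Flt3. Of the defining genes Zbtb46 rose, while Xcr1 and Siglech were not tested and overlapped. Xcr1 had at most 0.317 FPKM and Siglech at most 0.0857 FPKM in any library. Thus macrophage, monocyte, NK and dendritic cell sums were higher in every G9gl library, while T cell sums overlapped. In G9gl the NK cell sum was mostly Prf1 and Nkg7, and the defining Ncr1 and Klrb1c had at most 0.521 FPKM in any library. The monocyte and neutrophil sum in G9gl was mostly Ly6c2 and S100a8, while the defining S100a9 overlapped (limma adjusted p 0.203). Itgam, which was not tested, had 0.238 to 0.385 FPKM in G9gl, against 0.401 to 0.827 FPKM in WT. Plasma cell markers, 3 of 6 called higher and 1 lower, summed to 345 to 369 FPKM in G9gl, against 321 to 346 FPKM in WT. This sum was carried by Mzb1 and Xbp1, which were not called. Of the defining markers Jchain and Sdc1 rose, and Prdm1 did not. Prdm1 was not tested and overlapped, with 0.34 to 0.61 FPKM in G9gl, against 0.59 to 0.83 FPKM in WT. Jchain had 5.43 to 6.98 FPKM in G9gl, against 0.414 to 0.795 FPKM in WT (log2 fold change 2.196 ± 0.144, limma adjusted p 1.4e-05), and Sdc1 had 13.7 to 23.3 FPKM in G9gl, against 8.51 to 10.7 FPKM in WT. Transitional B cell genes, 2 of 3 called lower, summed to 262 to 288 FPKM in G9gl, against 705 to 753 FPKM in WT. Marginal zone B cell genes, 1 of 6 called higher and 3 lower, summed to 78.0 to 83.9 FPKM in G9gl, against 119 to 128 FPKM in WT. Both of these B cell sums were lower in every G9gl library, while the plasma cell sums overlapped. The transitional sum was mostly Cd24a and Vpreb3. The defining Cd93 overlapped, with 1.17 to 1.89 FPKM in G9gl, against 1.53 to 1.81 FPKM in WT, and Rag1 was near 0. Of the defining marginal zone genes Dtx1 fell, Cd9 overlapped and S1pr3 rose. S1pr3 had 6.83 to 10.9 FPKM in G9gl, against 4.22 to 4.70 FPKM in WT (limma adjusted p 0.0041). Dissociation stress genes, 4 of 9 called higher, summed to 3036 to 3707 FPKM in G9gl, against 2323 to 2548 FPKM in WT. Erythroid and platelet genes summed to 222 FPKM in G9gl replicate 1 and at most 69.3 FPKM in any other library. The part of these shifts in the results on the 32 genes was not tested.

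At the receptor, Nfam1 and Cd79a fell, and Cd79b and Cd81 did not pass. Nfam1, which encodes a further receptor with an ITAM in its tail, found on B cells and myeloid cells, had the largest decrease of the 32 genes. It lies at chr15:82992973-83033306 on the minus strand (mm10). Nfam1 had 3.67, 5.62 and 5.45 FPKM in the G9gl libraries, against 19.2, 23.0 and 19.1 FPKM in the WT libraries. All 3 G9gl libraries lay well below all 3 WT libraries, with a log2 fold change of -1.87 ± 0.14 and a limma adjusted p of 3.1e-05. On this log2(FPKM + 1) scale the decrease was 3.66-fold, and all folds of single genes are on that scale. Macrophage markers were higher in the same G9gl libraries, at 62.4 to 68.8 FPKM in G9gl, against 23.9 to 31.6 FPKM in WT in sum. What part other cells had in the Nfam1 values was not tested.

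The signalling chains themselves were the most abundant transcripts of the set. Cd79a had 2300.4, 2167 and 2172 FPKM in the G9gl libraries, against 2408, 2457 and 2625 FPKM in the WT libraries. The groups did not overlap, and the log2 fold change was -0.17 ± 0.05 (limma adjusted p 0.039), a 1.13-fold decrease. The log2 fold change of Cd79a was -0.31 after rescaling to TPM (adjusted p 0.0017) and -0.44 after quantile normalization (adjusted p 7.6e-04). Cd79b had 2428, 2455 and 2391 FPKM in the G9gl libraries, against 2431, 2456 and 2533 FPKM in the WT libraries. Here the groups overlapped, and the 95% interval of the log2 fold change ran from -0.13 to 0.07 (adjusted p 0.677). After quantile normalization Cd79b was called lower, with a log2 fold change of -0.30 (adjusted p 9.5e-04), and after rescaling to TPM with -0.16 (adjusted p 0.016). The ratio of Cd79a to Cd79b within a library, which no scaling factor changes, was 0.948, 0.883 and 0.908 in the G9gl libraries, against 0.991, 1.001 and 1.04 in the WT libraries. The ratio was lower in every G9gl library than in any WT library, with a difference of -0.14 in log2 ratio. Its two-sided exact permutation p was 0.1, the smallest that 3 against 3 libraries allow, and 0.14 adjusted over the 7 ratios examined. The Cd79a call was lost without G9gl replicate 2 or 3, without WT replicate 2 or 3 and with no filter on low values (adjusted p 0.081 to 0.18).

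Cd81, a membrane protein of the tetraspanin family, had 206, 213 and 213 FPKM in the G9gl libraries, against 223, 232 and 240.2 FPKM in the WT libraries. Its G9gl libraries lay below WT without overlap, but the call was not made (log2 fold change -0.13 ± 0.05, limma adjusted p 0.085). It was called lower after quantile normalization and after rescaling to TPM, with log2 fold changes of -0.20 and -0.27 (adjusted p 0.026 and 0.0047). A noncoding gene on the opposite strand, R74862, shares 30 exon bases with Cd81 and had at most 3.28 FPKM.

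**Figure D2:**
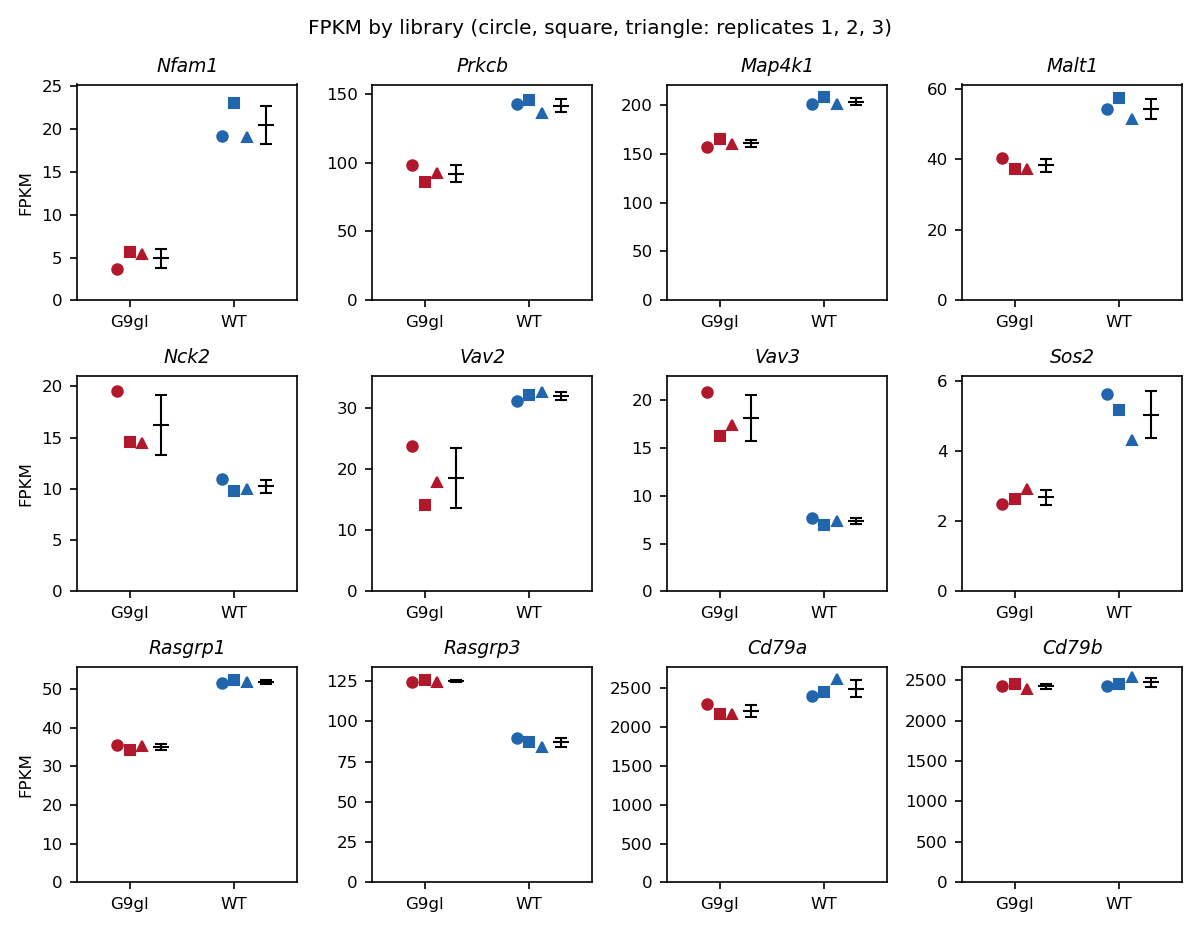
FPKM of 12 genes by library, with axes from 0, G9gl in red and WT in blue, symbols for replicates, and the mean ± SD of 3 libraries in black. In Nfam1, Prkcb, Map4k1, Malt1, Vav2, Sos2, Rasgrp1 and Cd79a every G9gl library lies below every WT library, in Nck2, Vav3 and Rasgrp3 above, and in Cd79b the groups overlap.

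Among the kinases, Prkcb, Map4k1 and Prkcd fell, and Syk and Btk did not pass. Prkcb encodes protein kinase C beta, which links BCR engagement to the NF-kB pathway. Prkcb had 98.0, 85.9 and 92.1 FPKM in the G9gl libraries, against 142, 146 and 136 FPKM in the WT libraries. The highest G9gl library stayed far under the lowest WT library, with a log2 fold change of -0.62 ± 0.06 (limma adjusted p 1.6e-04). Prkcd encodes protein kinase C delta, whose loss in mice breaks B cell tolerance. Prkcd had 109.7, 129.7 and 118 FPKM in the G9gl libraries, against 141, 153 and 145 FPKM in the WT libraries. It was lower in all 3 G9gl libraries, by 1.23-fold (log2 fold change -0.30 ± 0.07, adjusted p 0.014), and without WT replicate 2 its adjusted p was 0.058. The kinases' ratio moved with Prkcb, and Prkcd to Prkcb was 1.12, 1.51 and 1.29 in the G9gl libraries, against 0.989, 1.052 and 1.07 in the WT libraries (exact permutation p 0.1, adjusted 0.14).

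Map4k1 encodes HPK1, a kinase that binds BLNK and is known to restrain antigen receptor signals. Map4k1 had 157, 164 and 160.0 FPKM in the G9gl libraries, against 201, 208 and 201 FPKM in the WT libraries. The groups were tight and apart, with a log2 fold change of -0.34 ± 0.05 and a limma adjusted p of 0.0011. Syk, the kinase that docks on phosphorylated ITAMs, had 197, 186 and 195 FPKM in the G9gl libraries, against 200.2, 217 and 231 FPKM in the WT libraries. Its G9gl libraries were all below WT, but the largest G9gl and the smallest WT value were close (log2 fold change -0.16 ± 0.06, adjusted p 0.087). The Syk call was gained without WT replicate 1, after quantile normalization and after rescaling to TPM (adjusted p 0.0073 to 0.035). Btk, the Tec-family kinase that activates phospholipase C gamma 2, had 113, 110.1 and 112 FPKM in the G9gl libraries, against 112, 117 and 116 FPKM in the WT libraries. These groups overlapped, and the 95% interval of the log2 fold change was -0.15 to 0.07 (adjusted p 0.573). The 5 kinase genes together had 676 ± 2.04 FPKM in G9gl and 822 ± 22.6 FPKM in WT (SD, n = 3 libraries each), the largest relative difference of the 7 steps in summed FPKM.

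Adaptors went both ways, with Nck2 and Blnk higher, Shc1 lower and Bank1, Dok3, Grb2, Lat2 and Nck1 not passing. Nck2 encodes an SH2 and SH3 adaptor that links phosphorylated receptors to actin. Nck2 had 19.6, 14.6 and 14.5 FPKM in the G9gl libraries, against 11.0, 9.79 and 9.99 FPKM in the WT libraries. G9gl replicate 1 stood above the other G9gl libraries, yet all 3 exceeded WT, with a log2 fold change of 0.60 ± 0.12 (limma adjusted p 0.0061). Its close relative Nck1 had 28.3, 32.4 and 30.4 FPKM in the G9gl libraries, against 32.5, 30.2 and 31.95 FPKM in the WT libraries. Nck1 overlapped between genotypes (adjusted p 0.622). Of the summed FPKM of the pair, Nck2 made up 34.7% ± 5.36 in G9gl and 24.5% ± 0.688 in WT (SD, n = 3 each). The ratio of Nck2 to Nck1 was 0.690, 0.450 and 0.476 in the G9gl libraries, against 0.337, 0.324 and 0.313 in the WT libraries (exact permutation p 0.1, adjusted 0.14).

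Blnk, the scaffold that joins SYK to BTK and phospholipase C gamma 2, had 263, 295 and 304 FPKM in the G9gl libraries, against 241, 246 and 256 FPKM in the WT libraries. G9gl exceeded WT in every library, by 1.16-fold (log2 fold change 0.21 ± 0.06, limma adjusted p 0.039). This call was lost without G9gl replicate 2 or 3, without any single WT library, with no filter on low values, after quantile normalization and after rescaling to TPM (adjusted p 0.058 to 0.40). Shc1, an adaptor toward GRB2 and Ras, had 27.3, 29.6 and 26.9 FPKM in the G9gl libraries, against 33.4, 33.4 and 31.9 FPKM in the WT libraries. It was lower in each G9gl library (log2 fold change -0.23 ± 0.07, adjusted p 0.036). That call was lost without any single library other than G9gl replicate 2, and with replicate number as a block (adjusted p 0.058 to 0.12).

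Bank1, a B cell scaffold with ankyrin repeats that binds Lyn, was the most abundant adaptor of the set. Bank1 had 446, 396 and 400.1 FPKM in the G9gl libraries, against 475, 468 and 430.0 FPKM in the WT libraries. The groups overlapped through G9gl replicate 1, and the log2 fold change was -0.15 ± 0.06 (limma adjusted p 0.126). Without G9gl replicate 1 it was -0.20 with an adjusted p of 0.036. Grb2, which carries SOS to phosphorylated receptors, had 159, 119 and 119 FPKM in the G9gl libraries, against 133, 129.9 and 124 FPKM in the WT libraries. G9gl replicate 1 was above all WT libraries and the other G9gl libraries below them. Dok3, an inhibitory adaptor, ranged over 233 to 269.6 FPKM in G9gl, against 248 to 281 FPKM in WT (adjusted p 0.572). Lat2, a membrane adaptor also called NTAL, ranged over 178 to 206 FPKM in G9gl, against 177 to 186 FPKM in WT (adjusted p 0.620). In G9gl replicate 1, 8 of the 32 genes, among them Dok3, Grb2, Lat2 and Nck2, lay over 0.2 log2 units from the mean of the other 2 G9gl libraries, against 5 and 3 in those. Lat2 shares 952 exon bases with Rfc2 on the opposite strand, which had 91.7 FPKM or more, and without strand information their reads cannot be told apart.

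Plcg2, which encodes phospholipase C gamma 2, fell modestly, and Hvcn1 did not pass. Plcg2 had 139, 134 and 136 FPKM in the G9gl libraries, against 151, 168 and 160.0 FPKM in the WT libraries. Every G9gl library was below every WT library, with a 1.17-fold decrease (log2 fold change -0.22 ± 0.06, limma adjusted p 0.018). Its call was lost without G9gl replicate 2 or 3 or WT replicate 2 or 3 (adjusted p 0.051 to 0.073). Hvcn1, a voltage-gated proton channel that sustains oxidant production at the engaged BCR, ranged over 296 to 344 FPKM in G9gl, against 309 to 354 FPKM in WT (adjusted p 0.575). Hvcn1 shares 1229 exon bases with Tctn1 on the opposite strand, which had 247 to 302 FPKM.

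The exchange factors held the sharpest changes among paralogs. Vav3 and Rasgrp3 rose, Vav2, Rasgrp1, Sos1 and Sos2 fell, and Vav1 did not pass. VAV proteins are exchange factors that act on the actin cytoskeleton, RASGRP proteins are recruited by diacylglycerol to load Ras, and SOS proteins reach Ras through GRB2.

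Vav3 (chr3:109340653-109685698, plus strand) had the largest increase of the 32 genes, with 20.8, 16.2 and 17.4 FPKM in the G9gl libraries, against 7.70, 7.002 and 7.41 FPKM in the WT libraries. The lowest G9gl library was well above the highest WT library, a 2.28-fold rise (log2 fold change 1.19 ± 0.10, limma adjusted p 6.9e-05). Vav2 (chr2:27262104-27427033, minus strand) had 23.7, 14.1 and 17.8 FPKM in the G9gl libraries, against 31.1, 32.01 and 32.6 FPKM in the WT libraries. It was lower in all G9gl libraries and scattered more there, with a log2 fold change of -0.78 ± 0.15 and an adjusted p of 0.0050. Vav1, the main family member of blood cells, had 93.7, 90.2 and 84.6 FPKM in the G9gl libraries, against 89.9, 101 and 101 FPKM in the WT libraries. These values overlapped, with a 95% interval of the log2 fold change from -0.27 to 0.03 (adjusted p 0.236).

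As a family the Vav genes summed to 138, 121 and 119.8 FPKM in G9gl, against 129, 139.7 and 141 FPKM in WT, which overlapped. Of this sum Vav1 made up 71.1% ± 3.54 in G9gl and 71.2% ± 1.20 in WT (SD, n = 3 each, as for all shares). Vav2 made up 14.6% ± 2.74 in G9gl and 23.4% ± 0.701 in WT. Vav3 made up 14.4% ± 0.809 in G9gl and 5.41% ± 0.505 in WT. The level of Vav3 came to about that of Vav2 in G9gl, where the 2 genes overlapped, while in WT Vav2 was above Vav3 in every library. The ratio of Vav2 to Vav1 was 0.253, 0.157 and 0.210 in the G9gl libraries, against 0.346, 0.318 and 0.322 in the WT libraries (difference in log2 ratio -0.69, exact permutation p 0.1, adjusted 0.14).

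Rasgrp1 (chr2:117279993-117343001, minus strand) and Rasgrp3 (chr17:75435896-75529054, plus strand) moved apart with little scatter. Rasgrp1 had 35.6, 34.1 and 35.2 FPKM in the G9gl libraries, against 51.4, 52.2 and 51.7 FPKM in the WT libraries. Rasgrp3 had 124.5, 125.5 and 124 FPKM in the G9gl libraries, against 89.3, 87.2 and 83.9 FPKM in the WT libraries. Neither gene's groups overlapped, and the log2 fold changes were -0.55 ± 0.06 for Rasgrp1 (limma adjusted p 1.7e-04) and 0.52 ± 0.05 for Rasgrp3 (adjusted p 1.4e-04). The ratio of Rasgrp1 to Rasgrp3 was 0.286, 0.272 and 0.283 in the G9gl libraries, against 0.576, 0.599 and 0.616 in the WT libraries, lower in G9gl by 2.13-fold (exact permutation p 0.1, adjusted 0.14). This was the largest shift of the 7 ratios. Of the summed FPKM of Rasgrp1 and Rasgrp3, Rasgrp3 made up 78.1% ± 0.454 in G9gl and 62.6% ± 0.797 in WT. The sum of these 2 genes was 160.2, 159.6 and 159.5 FPKM in G9gl, against 141, 139.5 and 136 FPKM in WT, higher in every G9gl library. It leaves out Rasgrp2 and Rasgrp4, which are outside the set. Rasgrp2, named here after its values were seen, had 59.6, 44.8 and 43.1 FPKM in the G9gl libraries, against 99.6, 97.8 and 99.9 FPKM in the WT libraries. With Rasgrp2 added to the sum, every G9gl library would lie below every WT library.

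Sos1 and Sos2 were the scarcest genes of the set and fell together. Sos2 had 2.50, 2.63 and 2.91 FPKM in the G9gl libraries, against 5.62, 5.16 and 4.31 FPKM in the WT libraries. No G9gl value reached the WT range (log2 fold change -0.71 ± 0.12, limma adjusted p 0.0032). Sos1 had 2.33, 1.605 and 1.87 FPKM in the G9gl libraries, against 3.50, 3.19 and 3.11 FPKM in the WT libraries. The groups were again apart (log2 fold change -0.54 ± 0.13, adjusted p 0.017), with the call lost without G9gl replicate 2 or 3, without WT replicate 1 or 2 and with no filter on low values (adjusted p 0.050 to 0.068). Since these fold changes are on log2(FPKM + 1), they understate the change of such low genes. The ratio of Sos2 to Sos1 overlapped, at 1.07, 1.64 and 1.55 in the G9gl libraries, against 1.61, 1.62 and 1.39 in the WT libraries (exact permutation p 0.7, adjusted 0.7).

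**Figure D3:**
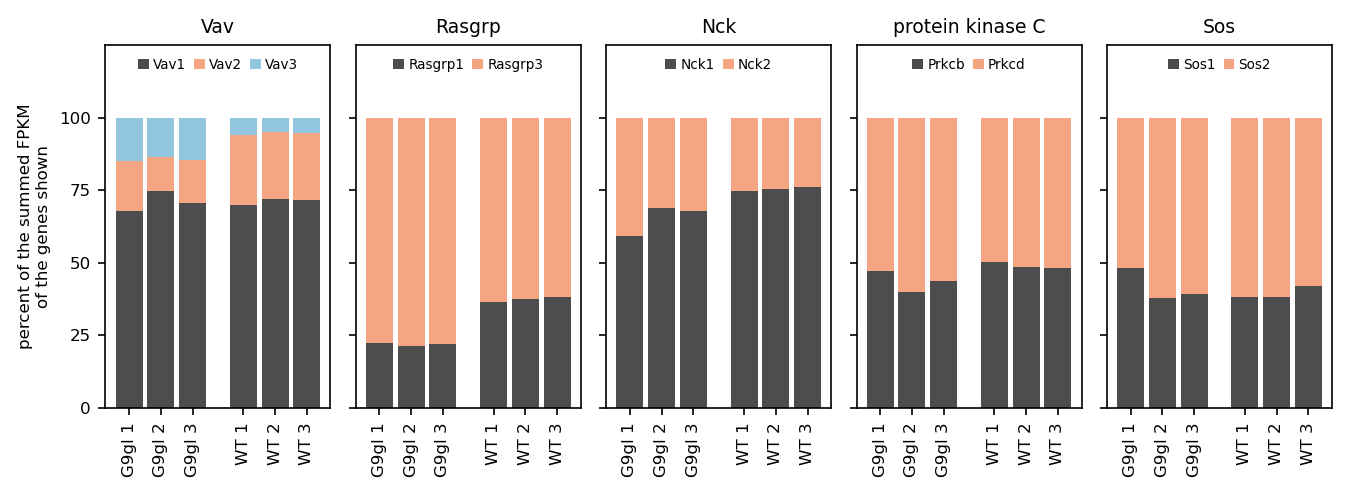
Share of each gene in the summed FPKM of the related genes shown with it, in percent, by library, with the 3 G9gl libraries left of the 3 WT libraries. Vav3 takes 13.5% to 15.1% of the 3 Vav genes in G9gl against 5.01% to 5.98% in WT, and Rasgrp3 77.8% to 78.6% of its pair against 61.9% to 63.5%, while the Sos shares overlap.

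Since Vav2 and Vav3, and Rasgrp1 and Rasgrp3, moved in opposite directions, 120 bases before each are shown, cut from RefSeq's promoter table (GRCm38.p6, the assembly of mm10). Each stretch ends just before the farthest upstream start in either RefSeq (Vav2) or GENCODE vM21 (Vav3, Rasgrp1 and Rasgrp3). Of the 32 genes, 28 had a promoter entry. Windows of 250 bases before each RefSeq start were searched on both strands for 11 motifs, and capitals mark the matches within the printed stretch. The motifs were GGAAGT (ETS core), GAGGAAGT (PU.1), the EBF1 motif, ATGCAAAT (OCT), CAGGTG (E2A E-box), TGGAAA (NFAT), GCGGGGGCG (EGR), the NF-kB motif, the IRF element, TGACGTCA (CRE) and GGGCGG (SP1 box). The matches are TGGAAA (NFAT) in Vav2, GGGCGG (SP1 box) in Vav3 and Rasgrp1, GCGGGGGCG (EGR) in Vav3, which overlaps SP1 boxes, and GAGGAAGT (PU.1) in Rasgrp3, which contains GGAAGT (ETS core).
Vav2, chr2:27427609-27427728, minus strand: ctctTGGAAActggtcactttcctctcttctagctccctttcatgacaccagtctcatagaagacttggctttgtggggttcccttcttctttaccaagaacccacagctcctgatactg
Vav3, chr3:109340533-109340652, plus strand: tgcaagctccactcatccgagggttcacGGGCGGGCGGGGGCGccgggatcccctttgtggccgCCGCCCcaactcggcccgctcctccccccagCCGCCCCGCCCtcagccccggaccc
Rasgrp1, chr2:117343002-117343121, minus strand: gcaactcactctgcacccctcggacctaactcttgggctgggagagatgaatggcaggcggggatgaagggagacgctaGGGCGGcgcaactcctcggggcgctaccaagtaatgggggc
Rasgrp3, chr17:75435776-75435895, plus strand: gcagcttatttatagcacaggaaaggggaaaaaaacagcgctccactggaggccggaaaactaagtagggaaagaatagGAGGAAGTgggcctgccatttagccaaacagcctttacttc
Base composition differed, with 77.5% G and C in Vav3 and 47.5% in Vav2, and 63.3% in Rasgrp1 and 47.5% in Rasgrp3. Over all 27025 genes in the table, at least 1 window held TGGAAA in 20.9%, GGGCGG in 35.4%, GCGGGGGCG in 2.93%, GAGGAAGT in 2.79% and GGAAGT in 22.2%. The other motifs were held by 0.914% (EBF1 motif), 1.81% (ATGCAAAT), 19.4% (CAGGTG), 0.414% (NF-kB motif), 3.46% (IRF element) and 1.77% (TGACGTCA). Among the 28 genes with an entry, TGGAAA was found in 5, GGGCGG in 16, GCGGGGGCG in 3 (Vav3, Sos2 and Ptpn11), GAGGAAGT in 3 (Rasgrp3, Vav1 and Grb2) and GGAAGT in 14. Blnk and Prkcb held ATGCAAAT, Vav3 held the EBF1 motif, Ptpn11 held TGACGTCA, 11 genes held CAGGTG, and 0 held the NF-kB motif or the IRF element. A match is a description of the letters and not of binding.

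Downstream of protein kinase C beta, Malt1 fell and Bcl10 rose. Malt1 encodes the paracaspase and Bcl10 a filament-forming adaptor, both of the NF-kB pathway. Malt1 had 40.5, 37.3 and 37.4 FPKM in the G9gl libraries, against 54.2, 57.3 and 51.5 FPKM in the WT libraries. All G9gl libraries were lower, with a 1.41-fold decrease (log2 fold change -0.49 ± 0.07, limma adjusted p 8.4e-04). Bcl10 had 88.5, 94.0 and 95.4 FPKM in the G9gl libraries, against 81.9, 77.7 and 76.8 FPKM in the WT libraries. Here all G9gl libraries were higher, by 1.17-fold (log2 fold change 0.23 ± 0.06, adjusted p 0.018). The Bcl10 call was lost without G9gl replicate 2 or 3, without WT replicate 2 or 3 and after rescaling to TPM, where its log2 fold change was 0.10 (adjusted p 0.060 to 0.23).

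None of the 4 phosphatase genes passed the test, with 0 under an unadjusted p of 0.05 in limma. Under the 14 alternatives the only such call was Ptprc, lower after rescaling to TPM (log2 fold change -0.27, adjusted p 0.010). Ptprc encodes CD45, which keeps Src-family kinases active and whose B220 form was used for sorting. Ptprc had 259, 235 and 262 FPKM in the G9gl libraries, against 289, 278 and 263 FPKM in the WT libraries. The G9gl libraries lay just below WT (log2 fold change -0.13 ± 0.06, limma adjusted p 0.145). Ptpn6 encodes SHP-1, which is recruited by inhibitory receptors and opposes BCR signals. Ptpn6 had 1232, 1146 and 1135 FPKM in the G9gl libraries, against 1021, 1134 and 1131 FPKM in the WT libraries. Its G9gl libraries lay just above WT (log2 fold change 0.10 ± 0.06, adjusted p 0.265), and the sign turned after rescaling to TPM and after quantile normalization. Ptpn6 shares 195 exon bases with an antisense gene, Gm20531. Ptpn22, a phosphatase of Src-family and SYK-family kinases, ranged over 18.4 to 20.9 FPKM in G9gl, against 14.0 to 18.7 FPKM in WT (95% interval of the log2 fold change -0.02 to 0.46). Ptpn11, which encodes SHP-2, ranged over 9.57 to 11.4 FPKM in G9gl, against 8.21 to 10.05 FPKM in WT (95% interval -0.02 to 0.45). The ratio of Ptpn11 to Ptpn6 overlapped between genotypes, with a difference in log2 ratio of 0.14 (exact permutation p 0.4, adjusted 0.47).

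Summed over the 32 genes, the level was 9075 to 9428 FPKM in G9gl, against 9463 to 9896 FPKM in WT, most of it from Cd79a, Cd79b and Ptpn6. These 3 were the most abundant in both genotypes, and Sos2 and Sos1 the least. The receptor genes summed to 4853 ± 78.8 FPKM in G9gl and 5222 ± 175 FPKM in WT (SD, n = 3 each), without overlap. The adaptors summed to 1352 ± 25.7 FPKM in G9gl and 1356 ± 8.38 FPKM in WT and the exchange factors to 291 ± 11.0 FPKM in G9gl and 284 ± 4.50 FPKM in WT, with overlap in both. Both steps held genes that rose and genes that fell. Plcg2 and Hvcn1 summed to 454 ± 25.7 FPKM in G9gl and 491 ± 28.3 FPKM in WT. Bcl10 and Malt1 summed to 131 ± 1.94 FPKM in G9gl and 133 ± 4.24 FPKM in WT, and the phosphatases to 1453 ± 59.5 FPKM in G9gl and 1397 ± 51.9 FPKM in WT.

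**Figure D4:**
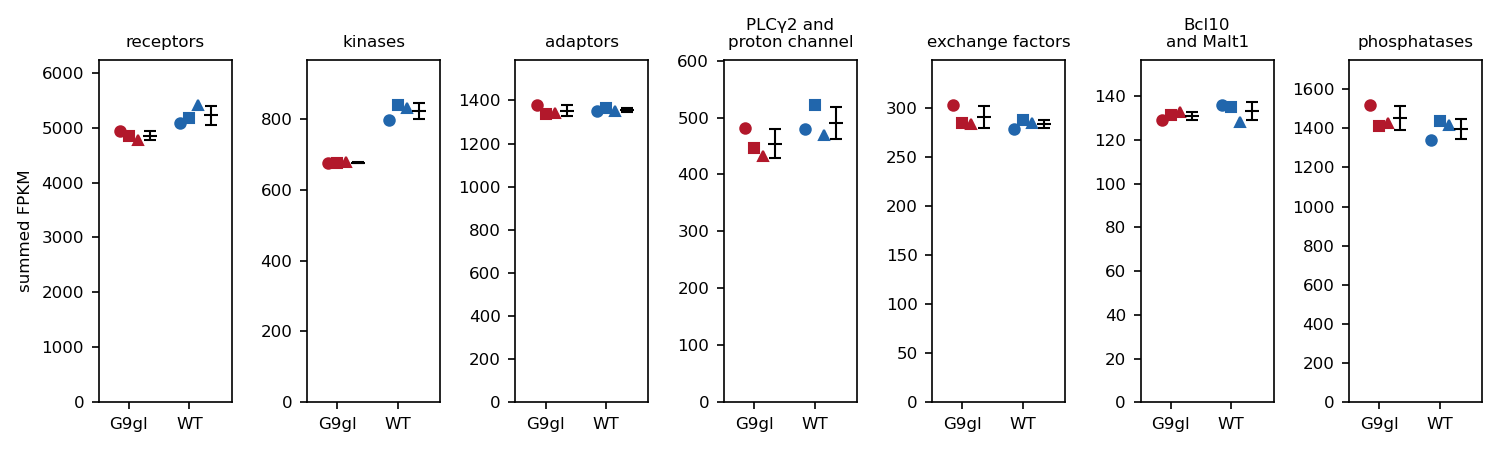
Summed FPKM of the genes of each signalling step by library, with axes from 0, G9gl in red left of WT in blue, and the mean ± SD of 3 libraries in black. Kinases sum to 674 to 678 FPKM in G9gl against 797 to 840 FPKM in WT, receptors are lower in every G9gl library, and the adaptors, exchange factors and phosphatases overlap.

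A further 73 genes of the BCR pathway outside the set were counted for comparison, of which 71 were tested. Of these 8 rose and 22 fell in G9gl, 11.3% and 31.0%, against 11.8% and 11.6% of all tested genes, with a median log2 fold change of -0.11. The largest rises were in Cd72, an inhibitory coreceptor gene, and in Stap1, an adaptor gene, with log2 fold changes of 1.03 ± 0.05 and 0.59 ± 0.06 (limma adjusted p 2.7e-06 and 1.4e-04). The deepest falls were in Cr2, the gene of CD21, for whose low level the cells were sorted, and in Cblb, a ubiquitin ligase gene, with log2 fold changes of -1.09 ± 0.06 and -0.80 ± 0.08 (adjusted p 5.2e-06 and 1.4e-04). The share that rose was thus near that over all genes. Counts by step are small and are given as a description, beside the same 11.8% and 11.6%. By step, 2 of 6 kinase genes rose and 1 fell, 3 of 8 coreceptor and inhibitory receptor genes rose and 3 fell, and 2 of 11 further adaptors and ubiquitin ligases rose and 3 fell. Falls without a rise were counted in the PI3 kinase step (3 of 7), the diacylglycerol kinases (2 of 3), the Ras and ERK step (2 of 9), the Rac and actin step (3 of 7) and the NF-kB step (1 of 7). In the calcium and NFAT step 1 of 13 rose and 4 fell. With values rescaled to TPM 5 rose and 39 fell, while 7.21% of all tested genes rose and 24.6% fell.

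**Figure D5:**
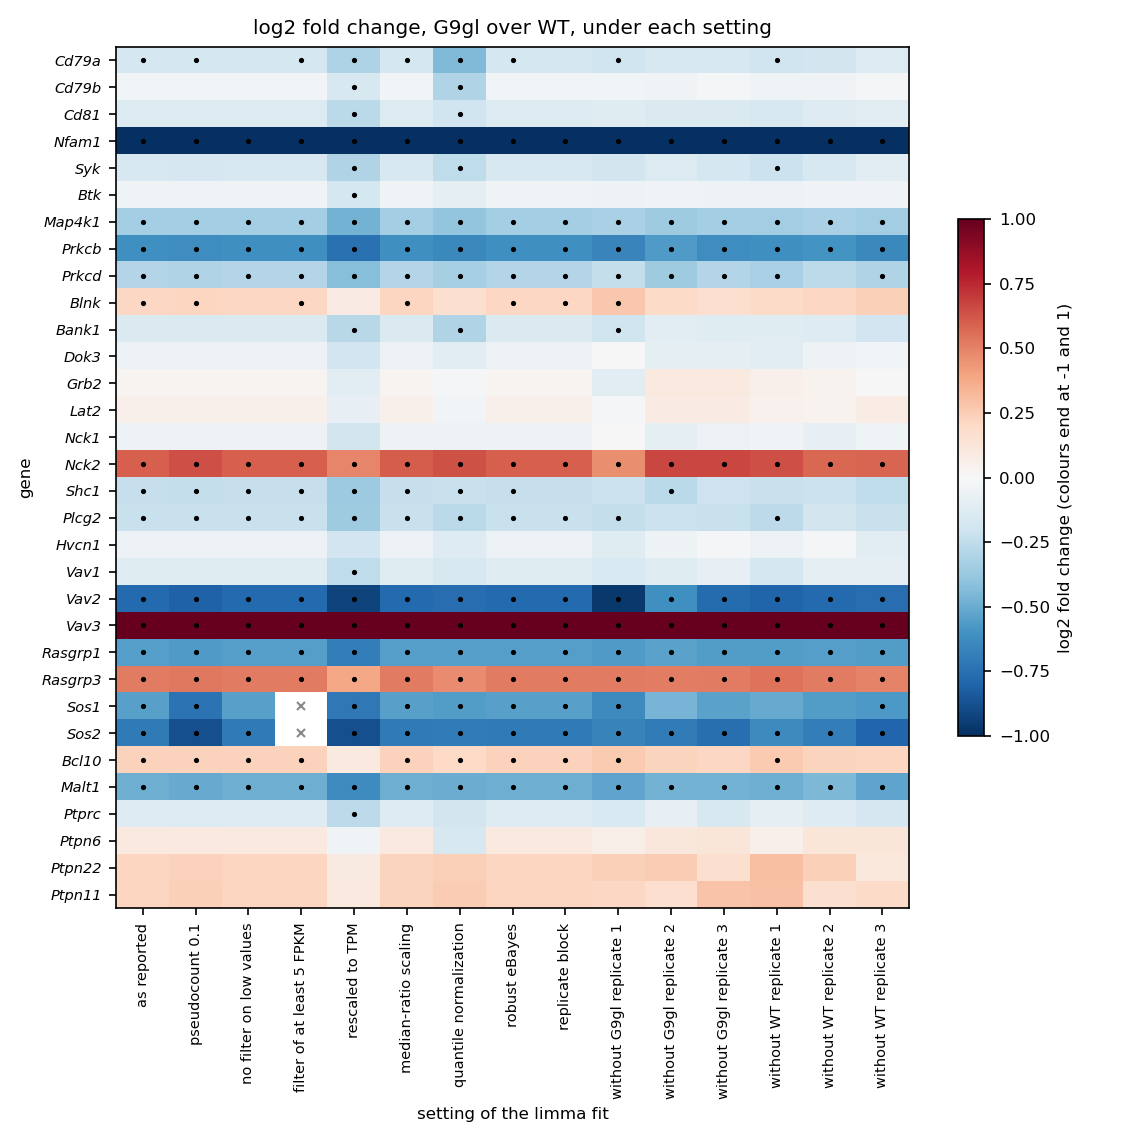
Log2 fold change of G9gl over WT for the 32 genes (rows) under the fit as reported and its 14 alternatives (columns), with a dot where the adjusted p was under 0.05 and a cross where the gene was below the filter. Colours end at -1 and 1. Dots fill the rows of Nfam1, Map4k1, Prkcb, Nck2, Vav2, Vav3, Rasgrp1, Rasgrp3 and Malt1, and rescaling to TPM adds dots for genes such as Cd79b and Syk.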

How the data were processed

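Per the labels' protocols, Trizol-extracted RNA went through a SMART-Seq HT cDNA kit and a Nextera library kit, and neither records the strand. The submitters' processing notes name mm10 with TopHat2 2.0.13, Bowtie2 2.2.3, Cufflinks 2.2.1 and SAMtools 0.1.19. The deposited tables give FPKM by gene symbol, 1 table per library, the unit being inferred from these tools and from the values. Which annotation, filters or scaling the authors applied is not given in the sources used here. Because FPKM divides by all mapped fragments, an abundant transcript lowers every other value.

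The test took genes reaching 1 FPKM in 3 or more of the 6 libraries. Their log2(FPKM + 1) values were fitted in limma 3.58.1 (R 4.3.3; lmFit, then eBayes with trend) by genotype alone, with Benjamini-Hochberg adjustment over 10122 genes. Ratios of 7 gene pairs had exact permutation tests (scipy 1.17.1, Python 3.11.15). The 32 genes and all lists were chosen with earlier results of these data known. By rule, all 32 are named, as are the 2 highest and 2 lowest called genes of the other pathway list. Marker lists follow the same rule but are mostly given as sums, and some genes are not reported here. From the FPKM value of a single fragment, depth was estimated at 10690000 to 12480000 fragments per G9gl library and 10650000 to 11220000 per WT library. In a transcript of 2 kb, 1 FPKM then rests on 21.3 to 25.0 fragments. No pair of libraries had the same value above 0 in more than 2 genes. Alternatives were another pseudocount, filter, scaling, moderation and block, and leaving out each library. Positions are 1-based, from GENCODE vM21 (GRCm38, the assembly of mm10).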

Additional observations from a re-analysis of the deposited data

How the results depend on the processing

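Of the 17 genes called, 10 were called under every alternative that tested them and 7 lost the call in at least 1. Of the 15 not called, 8 were called under none. No called gene changed sign, and over 446 gene and setting pairs, 389 kept their direction and side of the threshold, 35 lost a call, 13 gained one and 9 uncalled values changed sign. With values rescaled to TPM, 3 of the 32 genes were higher and 19 lower, 5 and 39 of the other pathway genes, and 730 and 2493 of all tested genes. TPM here is a share of the genes listed, without immunoglobulin transcripts. Leaving out single libraries gave 3 to 5 of the 32 higher and 7 to 12 lower, and 793 to 1076 and 689 to 1175 over all genes. The lowest of these totals came without G9gl replicate 2 for higher and without WT replicate 2 for lower. With no filter on low values, where 19079 genes were tested, 9.19% were called in all. The labels do not say whether the replicate numbers pair the libraries. The correlations of same-numbered deviations were 0.099, -0.069 and 0.021, and the best match of WT replicate 3 was G9gl replicate 2 (0.16). These deviations are taken from the mean of only 3 libraries per genotype, so the correlations cannot decide whether the libraries were paired. With the replicate number as a block 5 of the 32 were higher and 10 lower, against 10.3% and 9.76% of all tested genes. Cd79a (adjusted p 0.088) and Shc1 (0.061) were then no longer called. The 7 ratios moved by less than 1 SD with a pseudocount of 1 and without each library, the alternatives run for them. With 3 libraries per genotype, differences near the spread of a gene such as Grb2 (95% interval of the log2 fold change -0.20 to 0.26) could not be resolved.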
